A study of Mus musculus with 9 samples.

Results

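NF-κB is a family of transcription factors that turns on genes of inflammation and cell survival. The 10 genes described here, of 48587 genes counted in mouse retina, were chosen by name for their place in that pathway: the 5 subunit genes Nfkb1, Nfkb2, Rel, Rela and Relb, the cytoplasmic inhibitors Nfkbia and Nfkbie, the nuclear IκB proteins Bcl3 and Nfkbiz, and Tnfaip3, a ubiquitin-editing enzyme that shuts the pathway down. The rule that chose them uses names alone, although it was set with earlier results of these data known, and 10 of 10 passed the filter on low counts in every comparison. The retinas came from C57BL/6J mice aged 12 weeks. In the retinal vein occlusion (RVO) group all large veins of an eye had been closed by laser after an injection of the dye eosin Y, which strengthens the laser effect (200 mg/kg, laser power 50 mW, spot 50 µm, pulse 2.5 s). In the control laser group, which was the other eye of the same mice and so had the same dye, the same scheme of laser spots was placed between the large vessels. Untreated retinas had no laser treatment, and whether those mice had the dye is not given in the sources used here. Each group held 3 samples, each a pool of 6 retinas, and both laser groups were taken at day 2. Poly(A) RNA was sequenced, and total counts were 21022997 to 28993921 in RVO, 18897218 to 23419497 in control laser and 12377572 to 15245869 in untreated samples, so a low gene was measured least precisely in untreated retina. The tests below measure the spread between these pools.

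In a resting cell the subunits are held in the cytoplasm by IκB proteins. In the classical branch, signals such as tumour necrosis factor and interleukin 1 lead to the destruction of the IκB proteins, and dimers with RelA or c-Rel enter the nucleus. In the alternative branch, receptors such as the lymphotoxin β receptor lead to processing of the NFKB2 precursor, which works with RelB. Many genes of the pathway are themselves NF-κB targets: Nfkbia, Tnfaip3 and Nfkb2 are textbook examples, and Nfkbia and Tnfaip3 close a negative feedback loop. In retina the pathway is known from microglia, Müller glia and vessels after injury.

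The promoters of the genes on which the results turn are shown because the κB consensus, the motif that NF-κB dimers bind, lies close to the transcription start in each of them. Each window holds 250 bases before and 30 bases after a RefSeq start (GRCm38.p6, 5′ to 3′ on the gene's strand), and capitals mark matches to the κB consensus on either strand. Bcl3 is the window chr7:19822726-19823005 (minus strand), Nfkb2 is chr19:46304487-46304766 (plus strand), Nfkbia is chr12:55492618-55492897 (minus strand) and Tnfaip3 is chr10:19015381-19015660 (minus strand).
Bcl3: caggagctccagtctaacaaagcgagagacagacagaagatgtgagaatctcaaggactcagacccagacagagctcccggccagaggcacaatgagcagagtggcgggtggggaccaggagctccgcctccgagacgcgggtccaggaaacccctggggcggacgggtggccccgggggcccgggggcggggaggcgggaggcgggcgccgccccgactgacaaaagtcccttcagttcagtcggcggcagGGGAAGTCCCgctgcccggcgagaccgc
Nfkb2: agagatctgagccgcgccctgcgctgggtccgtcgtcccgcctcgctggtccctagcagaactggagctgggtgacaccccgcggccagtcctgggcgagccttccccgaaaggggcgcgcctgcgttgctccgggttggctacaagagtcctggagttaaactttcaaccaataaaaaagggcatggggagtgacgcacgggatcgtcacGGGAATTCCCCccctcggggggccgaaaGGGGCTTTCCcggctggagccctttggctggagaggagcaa
Nfkbia: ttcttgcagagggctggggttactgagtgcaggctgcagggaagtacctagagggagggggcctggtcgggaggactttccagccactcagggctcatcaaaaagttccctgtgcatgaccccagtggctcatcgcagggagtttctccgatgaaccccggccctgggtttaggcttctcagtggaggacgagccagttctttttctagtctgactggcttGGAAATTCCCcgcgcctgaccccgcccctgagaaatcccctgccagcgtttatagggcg
Tnfaip3: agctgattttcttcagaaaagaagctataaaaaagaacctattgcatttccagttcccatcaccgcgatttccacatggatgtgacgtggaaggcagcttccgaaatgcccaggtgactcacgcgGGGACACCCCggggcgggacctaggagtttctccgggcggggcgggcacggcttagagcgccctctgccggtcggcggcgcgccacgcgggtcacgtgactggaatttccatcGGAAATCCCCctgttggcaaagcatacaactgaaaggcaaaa

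Counted from the start, the Bcl3 match began at +3, the Nfkb2 matches at -39 and -11 (2 separate sites, the first of which holds overlapping matches), the Nfkbia match at -29 and the Tnfaip3 matches at -125 and -12. Rel had a site at -92 and Nfkbie at -106. Windows were found for 7 of the 10 genes, some with several starts. Of their 10 windows of 300 bases, shown here to 280 bases, 8 held a match, against 8.49% of all 32544 distinct windows of 300 bases in the RefSeq table, and 6 of the 7 genes had a match in at least 1 window. Nfkb2 gave several of the windows, and those at its later starts (chr19:46305445-46305724 and chr19:46305680-46305959) overlap. They share a site, at +11 in the first and at -225 in the second, so the windows are not independent. The Rela window held no match. The second Tnfaip3 window, at a start further downstream, held none either. Nfkb1, Relb and Nfkbiz had no window in the table. A match describes the letters of the window and is not a measure of binding.

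Bcl3 showed the widest range of the 10 genes. BCL3 is a nuclear IκB protein that joins dimers of the NFKB1 and NFKB2 products on DNA and can make them activate transcription. The gene (chromosome 7, 19808462 to 19822770, GRCm38, ENSMUSG00000053175.17) had 3, 5 and 2 counts in the 3 untreated samples, or 0.268, 0.382 and 0.140 counts per 1000000 counts (CPM). Control laser samples had 23.4, 39.5 and 25.9 CPM, and RVO samples had 87.2, 60.1 and 77.8 CPM. The 3 groups did not overlap, and the lowest control sample had more than any untreated sample by a wide margin. The fitted log2 fold change was 8.13 (standard error 0.27) for RVO over untreated, with an adjusted p of 1.28e-06, and 6.77 (standard error 0.35) for control laser over untreated, with an adjusted p of 3.45e-08 (edgeR's quasi-likelihood test with Benjamini-Hochberg adjustment over all genes tested, used for each adjusted p that follows). These were the 33rd largest rise of 16380 genes and the 27th largest of 16066 genes. Since untreated levels rest on 10 counts in all, the size of the fold is known less well than its direction. Against untreated samples Bcl3 passed the low-count filter through the laser groups alone, so it could only be called as a rise. RVO over control laser was 2.54-fold higher (log2 fold change 1.34, standard error 0.22), and its adjusted p of 0.0102 from edgeR missed the threshold of 0.01 used for calls. Antisense genes that overlap Bcl3 had at most 119 counts in a sample.

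**Figure D1:**
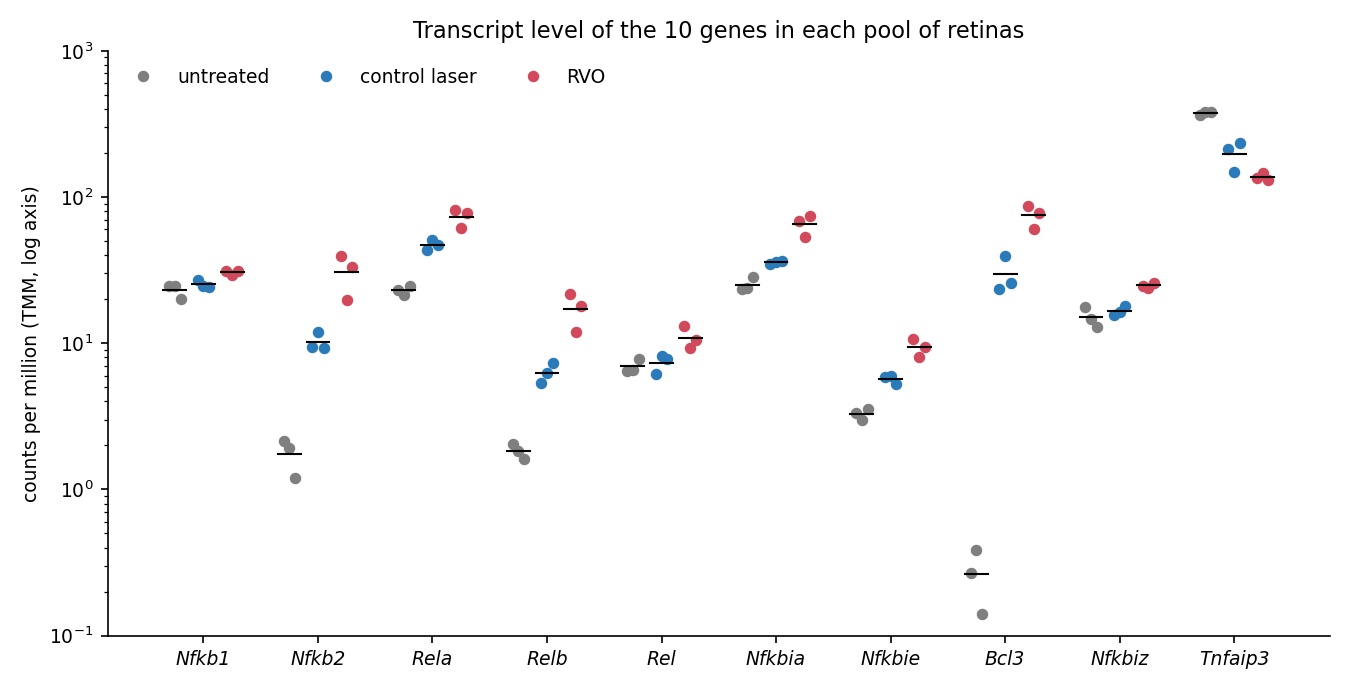
Level of each of the 10 genes in each of the 9 pools of retinas, in CPM on a log axis, with untreated, control laser and RVO samples side by side and a black bar at the mean of 3. Bcl3 ran from 0.140 CPM in an untreated sample to 87.2 CPM in an RVO sample, and Tnfaip3 was the gene whose untreated samples lay highest, at 366 to 383 CPM.

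Nfkb2 and Relb, the subunits of the alternative branch, rose more than the other subunits. Nfkb2 (chromosome 19, 46304320 to 46312385, ENSMUSG00000025225.15) had 2.15, 1.91 and 1.19 CPM in untreated, 9.44, 11.9 and 9.21 CPM in control laser and 39.6, 19.9 and 33.3 CPM in RVO samples. The groups did not overlap, although RVO replicate 2 stood well below the other RVO samples. Its log2 fold change was 4.15 (standard error 0.33, edgeR adjusted p = 3.15e-05) for RVO over untreated, 2.54 (standard error 0.20, edgeR adjusted p = 5.21e-07) for control laser over untreated and 1.61 (standard error 0.25, edgeR adjusted p = 0.00989) for RVO over control laser. The gene Psd overlaps Nfkb2 on the opposite strand and had 1769 to 8928 counts per sample. The library kit marks strand, the counting setting is not given in the sources used here, and untreated samples held 17 to 25 counts of Nfkb2. Relb (chromosome 7, 19606217 to 19629438, ENSMUSG00000002983.17), the partner of the processed Nfkb2 product, had 2.06, 1.84 and 1.61 CPM in untreated, 5.34, 6.24 and 7.27 CPM in control laser and 21.6, 12.0 and 18.1 CPM in RVO samples. The order of the groups was the same as for Nfkb2, again without overlap and with RVO replicate 2 lowest of its group. The log2 fold changes of Relb were 3.23 (standard error 0.27, edgeR adjusted p = 3.69e-05) for RVO over untreated, 1.76 (standard error 0.19, edgeR adjusted p = 5.54e-06) for control laser over untreated and 1.45 (standard error 0.23, edgeR adjusted p = 0.00996) for RVO over control laser.

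Among the subunits of the classical branch, Rela changed most. RelA carries the strong activation domain of the usual NF-κB dimer. Rela (chromosome 19, 5637483 to 5648130, ENSMUSG00000024927.8) had 23.2, 21.3 and 24.5 CPM in untreated, 43.4, 50.9 and 47.3 CPM in control laser and 81.6, 61.0 and 77.7 CPM in RVO samples. The samples of each group lay close together and the groups did not overlap. Rela rose by a log2 fold change of 1.66 (standard error 0.13, edgeR adjusted p = 2.74e-05) in RVO and of 1.02 (standard error 0.09, edgeR adjusted p = 8.86e-07) in control laser over untreated. RVO over control laser was 0.64 (standard error 0.12) on the log2 scale, with an edgeR adjusted p of 0.0130.

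Nfkb1 and Rel were the members with the smallest differences between RVO and untreated samples. Nfkb1 (chromosome 3, 135584655 to 135691547, ENSMUSG00000028163.17) encodes the usual partner of RelA. It had 24.7, 24.5 and 20.1 CPM in untreated, 27.1, 24.7 and 24.3 CPM in control laser and 31.1, 29.4 and 31.1 CPM in RVO samples. Control laser and untreated samples overlapped, while the RVO samples lay above both. Nfkb1 rose 1.32-fold in RVO over untreated (log2 fold change 0.40, standard error 0.10, edgeR adjusted p = 0.00981), a call that was lost in 5 of the 6 fits that left out a sample (edgeR adjusted p of 0.0195 to 0.0319 in those 5). The log2 difference was 0.12 (standard error 0.09, edgeR adjusted p = 0.278) for control laser over untreated and 0.27 (standard error 0.08, edgeR adjusted p = 0.0353) for RVO over control laser. Rel (chromosome 11, 23736847 to 23770970, ENSMUSG00000020275.9) encodes c-Rel, the subunit best known from lymphocytes and myeloid cells. Its levels were 6.44, 6.58 and 7.85 CPM in untreated, 6.20, 8.12 and 7.77 CPM in control laser and 13.0, 9.28 and 10.5 CPM in RVO samples. Again only the RVO samples stood clear of the other groups. Rel had a log2 fold change of 0.64 (standard error 0.17, edgeR adjusted p = 0.0109) for RVO over untreated, which missed the threshold by a small margin and passed it without RVO replicate 2 (edgeR adjusted p = 0.00055) and in DESeq2 (adjusted p = 0.0049). For control laser over untreated it was 0.06 (standard error 0.15, edgeR adjusted p = 0.748), and for RVO over control laser 0.57 (standard error 0.17, edgeR adjusted p = 0.0405).

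The mix of the 5 subunit transcripts was compared as shares within each sample. When counts were divided by the merged exon length of each gene (GENCODE vM21) and the 5 subunits were set to 100% in each sample, Rela was the most abundant in each of the 9 samples, with 66.9% ± 2.91 in untreated, 68.9% ± 0.439 in control laser and 61.5% ± 2.61 in RVO samples (SD, n = 3, as for the shares below). Nfkb1 was second in untreated samples, with 17.9%, 18.9% and 14.7% (mean 17.1% ± 2.21). It was at 10.9%, 8.57% and 9.03% in control laser and at 5.72%, 7.88% and 6.27% in RVO samples, so that the 3 groups did not overlap. Nfkb2 had the opposite order, from 4.09%, 3.88% and 2.28% in untreated to 9.98%, 10.8% and 8.99% in control laser and 19.2%, 14.0% and 17.6% in RVO samples. Relb had mean shares of 4.22% ± 0.512, 7.25% ± 0.972 and 11.2% ± 1.19 in the same order of groups. Rel had 8.32% ± 0.859, 4.41% ± 0.338 and 3.76% ± 0.318. With 3 samples against 3 a two-sided exact permutation test cannot go below p = 0.1, and 14 of the 15 differences in share were at that limit (exact p = 0.1, adjusted p = 0.107 over the 15 tests), the exception being Rela in control laser against untreated samples (exact p = 0.4). The level of Nfkb1 depends on the length used, since its merged exons span 12061 bases and its longest transcript 4149 bases. With the longest transcript its share was 34.8% in untreated and 15.3% in RVO samples, and the difference in the Rela share between RVO and untreated turned to 55.2% against 53.0%.

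**Figure D2:**
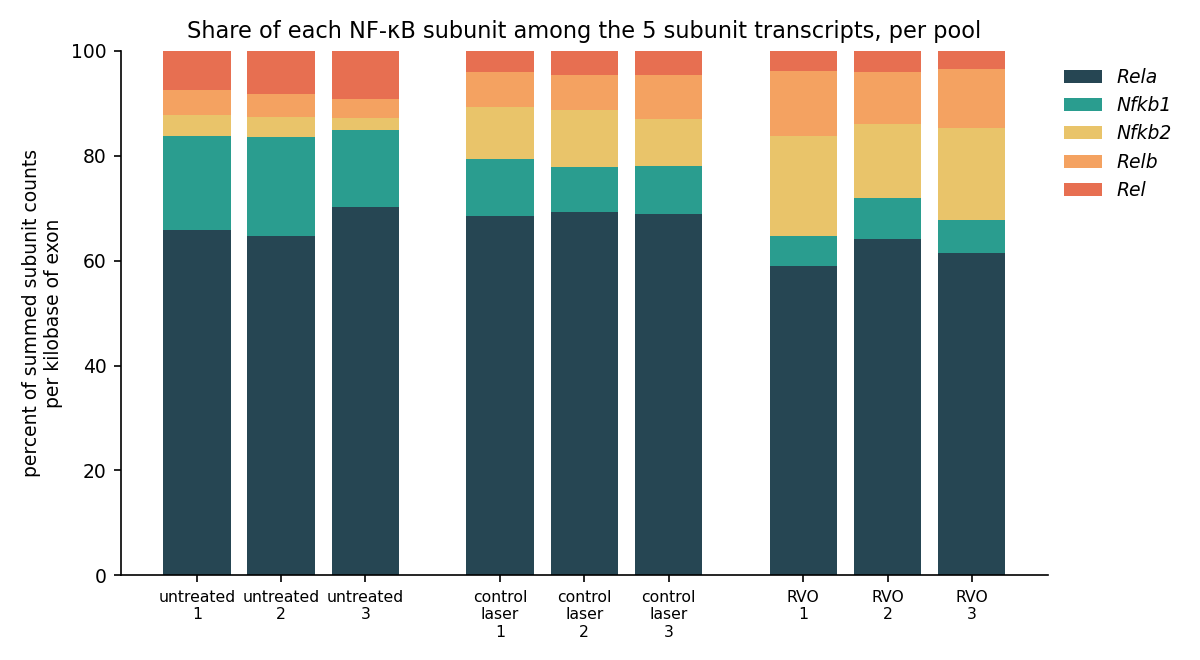
Stacked bars of the share of each NF-κB subunit among the 5 subunit transcripts in each of the 9 samples, in percent of counts per kilobase of merged exons. The mean share of Nfkb2 was 3.42% in untreated, 9.94% in control laser and 16.9% in RVO samples, while that of Nfkb1 was 17.1%, 9.50% and 6.62%.

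Ratios within a sample, which do not depend on the library scaling, use the same counts as the shares and are no separate evidence. They are given as a description, since they were picked after the values were seen. Counts of Nfkb2 per count of Nfkb1 were 0.0870, 0.0781 and 0.0592 in untreated, 0.348, 0.480 and 0.378 in control laser and 1.27, 0.676 and 1.07 in RVO samples. Counts of Relb per count of Rela were 0.0802 ± 0.0126 in untreated, 0.133 ± 0.0177 in control laser and 0.231 ± 0.0342 in RVO samples (mean ± SD, n = 3).

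The inhibitors of the cytoplasm rose less than Bcl3. Nfkbia (chromosome 12, 55489410 to 55492647, ENSMUSG00000021025.8) encodes IκBα, which binds RelA dimers and is rebuilt quickly after each signal. It had 23.3, 23.9 and 28.3 CPM in untreated, 35.0, 35.9 and 36.7 CPM in control laser and 68.1, 53.6 and 73.5 CPM in RVO samples. The control laser samples were nearly alike, and the groups did not overlap. Nfkbia rose by a log2 fold change of 1.36 (standard error 0.14, edgeR adjusted p = 8.99e-05) in RVO over untreated, of 0.49 (standard error 0.09, edgeR adjusted p = 0.00028) in control laser over untreated and of 0.86 (standard error 0.12, edgeR adjusted p = 0.0088) in RVO over control laser. Nfkbie (chromosome 17, 45555703 to 45563169, ENSMUSG00000023947.8) encodes IκBε, a slower inhibitor of the same kind. Its levels were low, at 3.31, 2.98 and 3.58 CPM in untreated, 5.88, 5.94 and 5.28 CPM in control laser and 10.7, 8.07 and 9.40 CPM in RVO samples. The groups did not overlap here either. Nfkbie rose 2.83-fold in RVO (standard error 0.18 on the log2 scale, edgeR adjusted p = 0.000175) and in control laser (log2 fold change 0.77, standard error 0.15, edgeR adjusted p = 0.000788) over untreated. RVO over control laser was 0.72 (standard error 0.15) on the log2 scale with an edgeR adjusted p of 0.0146.

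Set against its main binding partner, the inhibitor transcript was lower in both laser groups than in untreated samples and higher in RVO than in control laser samples, with no overlap. Counts of Nfkbia per count of Rela were 1.09 ± 0.0752 in untreated, 0.762 ± 0.0520 in control laser and 0.886 ± 0.0567 in RVO samples (mean ± SD, n = 3, a description). Counts of Bcl3 per count of Nfkbia were 0.0108 ± 0.00556, 0.825 ± 0.240 and 1.15 ± 0.115 in the same order, and control laser replicate 2, at 1.10, lay within the range of the RVO samples.

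Nfkbiz, the other nuclear IκB gene, differed from Bcl3. IκBζ is a cofactor that NF-κB needs for a second wave of target genes in macrophages and epithelia. Nfkbiz (chromosome 16, 55811375 to 55838899, ENSMUSG00000035356.17) had 17.6, 14.7 and 13.0 CPM in untreated, 15.6, 16.4 and 18.0 CPM in control laser and 24.7, 23.8 and 26.0 CPM in RVO samples. Control laser and untreated samples overlapped, and the RVO samples lay above both. The log2 fold change of Nfkbiz was 0.71 (standard error 0.13, edgeR adjusted p = 0.00144) for RVO over untreated, 0.13 (standard error 0.11, edgeR adjusted p = 0.33) for control laser over untreated and 0.57 (standard error 0.09, edgeR adjusted p = 0.00977) for RVO over control laser.

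Tnfaip3 fell in both laser groups, the opposite direction to the members that rose. The enzyme removes and adds ubiquitin chains on adaptors such as RIPK1 and so ends the signal. Tnfaip3 (chromosome 10, 19000910 to 19015657, ENSMUSG00000019850.11) had 366, 383 and 378 CPM in untreated, 213, 147 and 233 CPM in control laser and 134, 146 and 131 CPM in RVO samples. Untreated samples were far above both laser groups, whereas the lowest control laser sample, replicate 2, was barely above the highest RVO sample. Tnfaip3 fell by 1.47 on the log2 scale in RVO (standard error 0.07, edgeR adjusted p = 3.19e-06) and by 0.95 in control laser (standard error 0.12, edgeR adjusted p = 1.83e-05) against untreated samples. RVO minus control laser was -0.53 (standard error 0.15), with an edgeR adjusted p of 0.0351. Per kilobase of exon Tnfaip3 was the most abundant of the 10 genes in untreated samples, with 52.0 CPM per kilobase, and in control laser samples, with 27.3.

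The level of Tnfaip3 moved with the summed markers of rods, the most numerous cells of the retina, of Müller glia and of microglia. Against untreated samples the mean microglia sum was 2.64-fold lower in RVO and 1.97-fold lower in control laser. These folds were 2.12 and 1.47 for rods, and 2.32 and 1.44 for Müller cells. The summed level of 4 rod markers (Gnat1, Nrl, Pde6b and Sag) was 38106 to 40021 CPM in untreated, 24063 to 28427 CPM in control laser and 17797 to 19022 CPM in RVO samples. At an adjusted p under 0.01 in edgeR 4 of 4 were lower in RVO than in untreated samples, where 24.6% of all genes fell. In control laser over untreated, where 25.2% of all genes fell, 2 of 4 were lower, Gnat1 (1.71-fold, edgeR adjusted p = 5.67e-06) and Pde6b (1.44-fold, edgeR adjusted p = 4.81e-05). Gnat1, at a mean of 25555 CPM in untreated samples, makes up most of the sum. The summed level of 6 Müller cell markers was 4252 to 4512 CPM in untreated, 2689 to 3331 CPM in control laser and 1542 to 2314 CPM in RVO samples. Glul, at a mean of 2552 CPM in untreated samples, makes up most of that sum. In RVO over untreated 3 of the 6 were lower at an adjusted p under 0.01 in edgeR. In control laser over untreated 3 were lower and Kcnj10 was higher (edgeR adjusted p = 0.0011), and 3 of the 6 had a positive log2 fold change. Tnfaip3 counts per 1000 rod marker counts were 9.15, 9.99 and 9.93 in untreated, 7.90, 6.12 and 8.20 in control laser and 7.36, 7.66 and 7.37 in RVO samples. This ratio was lower in both laser groups than in untreated samples, and RVO samples lay within the range of control laser samples. It was picked after the values were seen and is given as a description. In these bulk samples fewer cells of a type and less RNA per cell cannot be told apart, and which cells held the Tnfaip3 transcript was not tested.

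**Figure D3:**
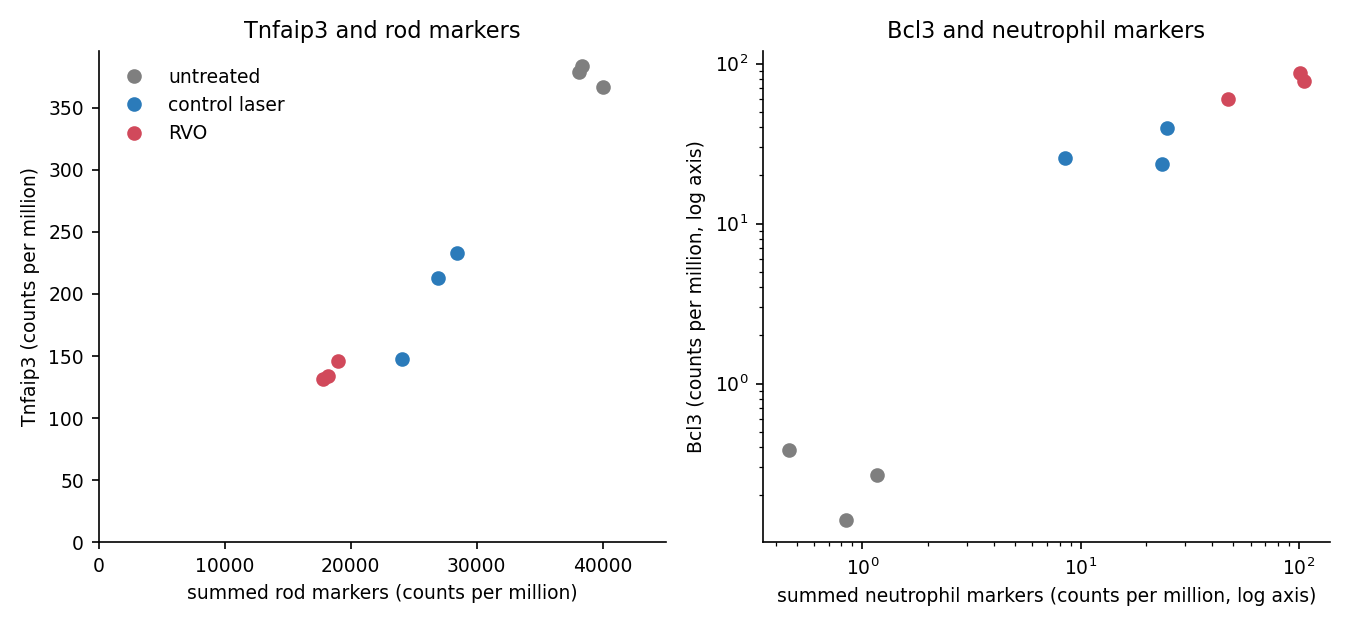
Left, Tnfaip3 against the summed level of 4 rod markers in each of the 9 samples, both in CPM from 0. Right, Bcl3 against the summed level of 7 neutrophil markers, both in CPM on log axes. Untreated samples stand apart in both panels, at 366 to 383 CPM of Tnfaip3 on the left and at 0.140 to 0.382 CPM of Bcl3 on the right.

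Markers of infiltrating leukocytes moved with the genes that rose. The summed level of 7 neutrophil markers was 0.459 to 1.16 CPM in untreated, 8.45 to 24.9 CPM in control laser and 47.3 to 105 CPM in RVO samples, and Cxcr2, Retnlg, Ly6g and Mmp8 were at 0 in all untreated samples. In RVO over untreated, where 27.4% of all genes rose, 5 of the 7 neutrophil markers rose in edgeR. The other 2, Retnlg and Ly6g, had too few counts to be tested, with 0 to 5 counts of Ly6g per RVO sample. Of the monocyte and macrophage markers 5 of 7 rose, and their sum was 11.2 to 15.0 CPM in untreated, 40.8 to 56.5 CPM in control laser and 93.2 to 109 CPM in RVO samples. Markers with at most 3 counts per untreated sample (Cxcr2, Mmp8, S100a8, S100a9, Ly6c2 and Ccr2) passed the low-count filter only through the RVO samples, so they could only be called as rises. Microglia markers were 125 to 191 CPM in untreated, 75.6 to 84.2 CPM in control laser and 47.3 to 75.8 CPM in RVO samples. Of these, 5 of 7 were lower in RVO than in untreated samples, where 24.6% of all genes fell. RVO replicate 2 had the lowest level of its group for 9 of the 10 genes and the highest for Tnfaip3, that is, the smallest difference from the other groups for each of them. It also had the lowest neutrophil sum and the highest endothelial sum, at 257 CPM against 140 and 187 CPM. It had the most lens RNA as well, with 2847 CPM over 5 lens markers against at most 219 CPM in the other RVO samples, and control replicate 1 had 1676 CPM against at most 178 CPM in the other control samples. Sums of 6 endothelial markers were 154 to 157 CPM in untreated and 307 to 340 CPM in control laser samples. Kdr makes up most of these sums, at means of 126, 256 and 150 CPM in untreated, control laser and RVO samples. Pan-leukocyte markers (4 genes) were at 19.7 to 30.7, 34.8 to 43.4 and 49.9 to 55.4 CPM in untreated, control laser and RVO samples, lymphocyte markers (6 genes) at most at 1.38 CPM, and pigment epithelium markers (5 genes) at 245 to 262, 176 to 217 and 146 to 266 CPM. The part of these cells and of the lens RNA in the values of the 10 genes was not tested.

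The order of the 10 genes per kilobase of exon changed between the groups. In untreated samples it began with Tnfaip3, Nfkbia at 15.6 and Rela at 7.49 CPM per kilobase and ended with Bcl3 at 0.107. In RVO samples Nfkbia led with 40.4 CPM per kilobase, followed by Bcl3 with 30.3, Rela with 23.9 and Tnfaip3 with 19.0. Bcl3 moved from rank 10 in untreated to rank 4 in control laser, at 12.0 CPM per kilobase, and rank 2 in RVO samples. Nfkb2 (6.74), Nfkbiz (4.95) and Relb (4.43) held the middle in RVO samples, and Nfkbie (3.09), Nfkb1 (2.53) and Rel (1.46) were lowest. Ranks of neighbours in this lower part changed with the length used, and Nfkb1 then moved from rank 9 to rank 6 in RVO samples.

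**Figure D4:**
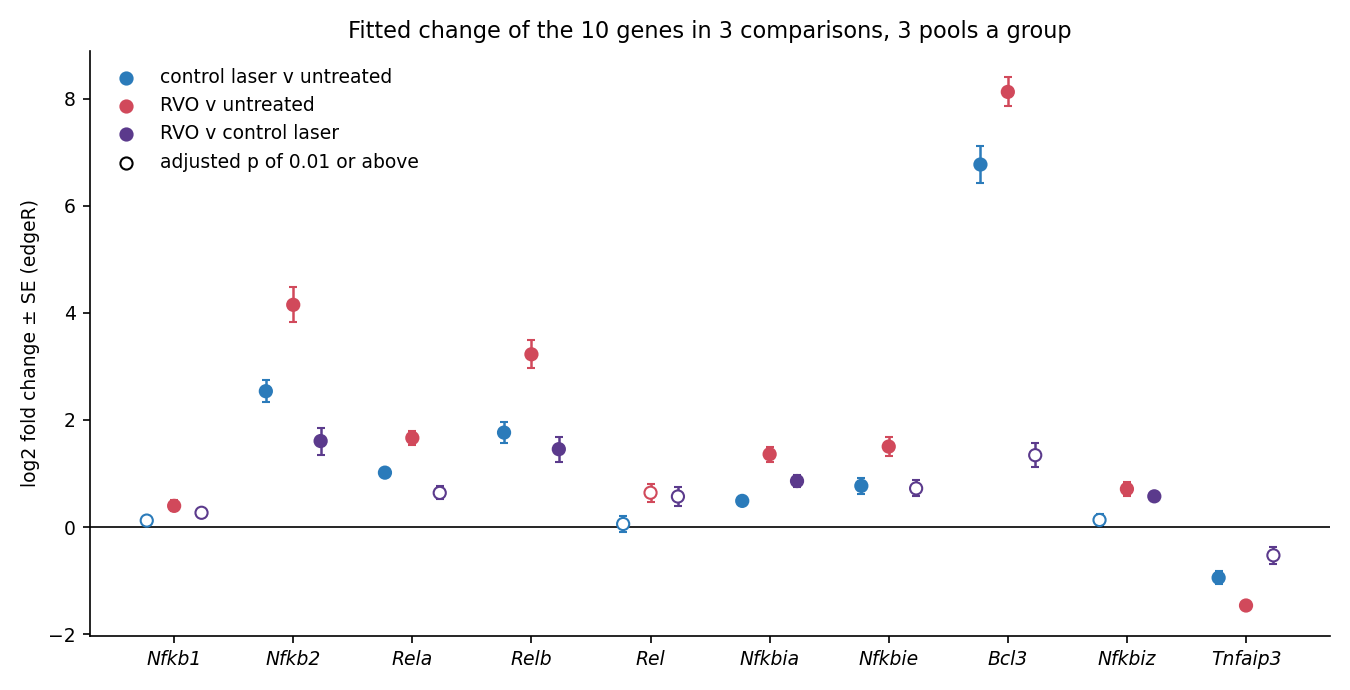
Fitted log2 fold change of each of the 10 genes with its standard error from edgeR in 3 comparisons of 3 against 3 samples. Filled points have an adjusted p under 0.01. Bcl3 lies highest at 8.13 for RVO over untreated, and Tnfaip3 is the gene below 0, at -1.47 for the same comparison.

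Counted together, 8 of the 10 genes rose and 1 fell (Tnfaip3) in RVO over untreated samples, where 27.4% of all 16380 genes tested rose and 24.6% fell at an edgeR adjusted p under 0.01. Their median log2 fold change was 1.43, against 0.01 over all genes tested. In control laser over untreated samples 6 rose and 1 fell, where 27.2% of genes rose and 25.2% fell, and the median of the 10 was 0.63 against 0.01. Both comparisons used the same 3 untreated samples and are not independent. When samples were scaled by library size alone, the split of all genes shifted to 5967 higher and 2741 lower in RVO, and to 5902 higher and 2484 lower in control laser, against untreated samples, and the median of all genes moved to 0.22 and 0.19. Every member with a call kept its direction under that scaling.

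The comparison of RVO with control laser samples, which asks what the closing of the veins adds to the laser treatment itself, gave smaller differences. Nfkb2, Relb, Nfkbia and Nfkbiz rose at an edgeR adjusted p under 0.01, and no member fell, where 2.7% of 16874 genes tested rose and 0.634% fell. The fit was unpaired although both groups hold eyes of the same mice, since the labels do not say which pools match. With the replicate number as a block edgeR called 0 of all 16874 genes, members included. At an unadjusted p under 0.05 all 10 differed in edgeR, 9 higher and Tnfaip3 lower, where 7940 of all 16874 genes differed in either direction. At an adjusted p under 0.05 the same 9 rose and Tnfaip3 fell, where 17.5% of genes rose and 17.1% fell. DESeq2 called 7 higher and 1 lower at an adjusted p under 0.01, where it called 11.1% of genes higher and 12.8% lower. The samples of the groups did not overlap for any of the 10 genes, 9 higher and 1 lower in RVO, a pattern that 27.3% and 25.4% of all genes tested had. The median log2 fold change of the 10 was 0.68, against 0.02 over all genes. The 4 calls lie just inside the threshold (edgeR adjusted p of 0.0088 to 0.00996) and those of Bcl3, Rela and Nfkbie just outside it (0.0102 to 0.0146). Without RVO replicate 2 edgeR called 8 of the 10 higher, where 17.1% of 17199 genes rose and 19.3% fell. Without RVO replicate 1, RVO replicate 3 or any of the control replicates 1, 2 and 3 it called 0 of the 10. Such fits called at most 29 genes in all, so this loss says nothing about the members. At an unadjusted p under 0.05 in edgeR 9 members were then still higher and 1 lower. In these fits 6100 to 6916 of 17149 to 17270 genes tested differed at that level in either direction. Over the alternatives the log2 fold change ranged from 1.37 to 1.83 for Nfkb2, from 1.24 to 1.64 for Relb, from 0.75 to 0.96 for Nfkbia and from 0.53 to 0.63 for Nfkbiz.

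The 87 other genes of the pathway, grouped by role, are given next by counts. Their lists were drawn from general knowledge of the pathway. At an edgeR adjusted p under 0.01, 27.4% of all genes tested rose and 24.6% fell in RVO over untreated samples. These shares were 27.2% and 25.2% in control laser over untreated, and 2.7% and 0.634% in RVO over control laser. Of 9 ligands and receptors of the classical branch, 7 rose and 0 fell in RVO over untreated samples (median log2 fold change 2.54), 5 of 8 tested rose in control laser over untreated samples and 1 of 9 in RVO over control laser. Il1b, which encodes interleukin 1β, had 0 to 2 counts per untreated, 28 to 86 per control laser and 106 to 293 per RVO sample. With summed counts scaled by library size and TMM factor, RVO samples had 109-fold more Il1b than untreated samples, with a 95% exact counting interval of 37.2 to 531. Tnf had 0 to 3, 6 to 8 and 13 to 32 counts in the same order, an 11.4-fold difference between RVO and untreated samples (counting interval 3.73 to 56.5). Against untreated samples Il1b and Tnf could pass the low-count filter only through a laser group, so they could only be called as rises. Of the receptors for tumour necrosis factor, Tnfrsf1a rose from 8.21 ± 0.383 CPM in untreated to 46.5 ± 9.27 CPM in control laser and 66.0 ± 4.91 CPM in RVO samples (SD, n = 3; log2 fold change 3.00 and edgeR adjusted p = 1.28e-06 for RVO over untreated). Tnfrsf1b rose in RVO over untreated (log2 fold change 3.34, edgeR adjusted p = 3.3e-05) and over control laser (1.70, edgeR adjusted p = 0.00928). The interleukin 1 receptor gene Il1r1 was at a log2 difference of 0.37 (edgeR adjusted p = 0.176) in RVO over untreated. Il1a, of the same list, was at 1.21 (edgeR adjusted p = 0.0162), which missed the threshold of 0.01.

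Of the alternative branch, 4 of 8 tested ligands and receptors rose and 1 fell in RVO over untreated samples (median 0.90), where 27.4% of all genes rose and 24.6% fell. Tnfrsf12a, the receptor of the cytokine TWEAK, rose from 3.12 ± 1.08 CPM in untreated to 25.7 ± 2.80 CPM in control laser and 121 ± 55.5 CPM in RVO samples (SD, n = 3), where RVO over control laser was 2.24 on the log2 scale (edgeR adjusted p = 0.00989). Ltbr, the lymphotoxin β receptor, rose by a log2 fold change of 3.12 (edgeR adjusted p = 3.13e-06) in RVO and of 2.26 (edgeR adjusted p = 2.44e-07) in control laser over untreated. Its ligand gene Ltb had 0 to 2 counts per untreated and 13 to 19 per RVO sample, and Cd40 had 2 to 7 and 31 to 32. Ltb and Cd40 passed the low-count filter there through the RVO samples alone. The gene that fell was Tnfsf12, which encodes TWEAK itself, by 0.57 on the log2 scale (edgeR adjusted p = 0.00148), named here after its value was seen. Tnfrsf11a and Tnfsf13b did not pass (edgeR adjusted p = 0.203 and 0.0138).

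**Figure D5:**
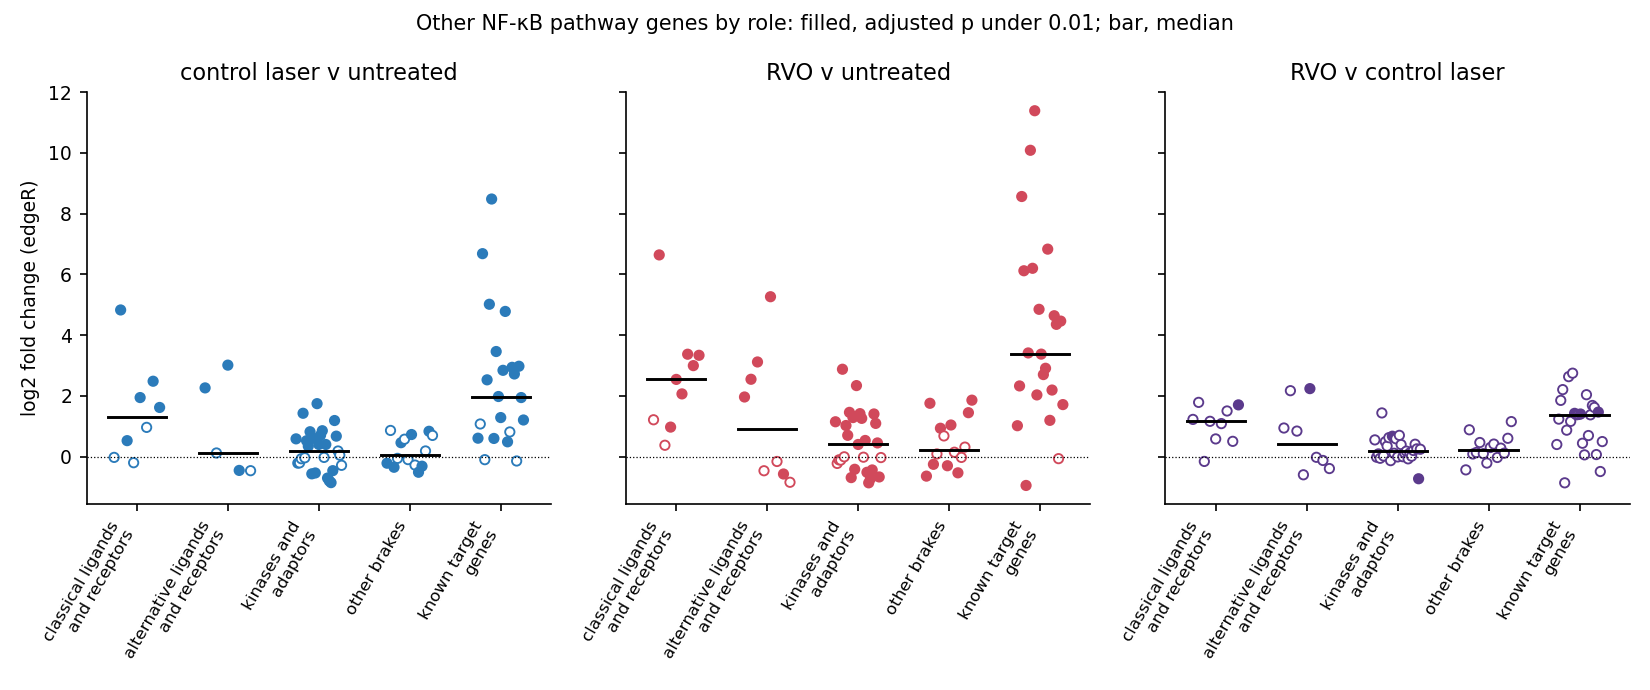
Log2 fold change (edgeR) of each tested gene in 5 lists of other NF-κB pathway genes, with control laser over untreated, RVO over untreated and RVO over control laser in separate panels. Filled points have an adjusted p under 0.01 and the black bar is the median of the list, which was 3.39 for the known target genes and 0.23 for the other brakes in RVO over untreated. Fitted values of genes with no counts in untreated samples depend on the prior count of the fit.

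Kinases and adaptors are read against the same shares of all genes. Of 27 tested, 14 rose and 7 fell in RVO over untreated samples (median 0.40; 27.4% and 24.6% of all genes), 13 rose and 7 fell in control laser over untreated samples, and 1 rose and 1 fell in RVO over control laser (2.7% and 0.634% of all genes). Ikbke, an IκB kinase homologue of innate immunity, rose by 2.88 (edgeR adjusted p = 0.000158), and Myd88, the adaptor of Toll-like and interleukin 1 receptors, by 2.34 (edgeR adjusted p = 1.4e-05) on the log2 scale in RVO over untreated. Irak4 and Ripk1, kinases that act below those receptors and the tumour necrosis factor receptor, rose by 1.46 and 1.41 (edgeR adjusted p = 0.000153 and 0.000464). The core IκB kinase genes Ikbkb and Ikbkg were at log2 differences of -0.11 and -0.01 (edgeR adjusted p = 0.181 and 0.947). The single riser against control laser was Map3k14, the kinase that starts processing of the NFKB2 precursor (log2 fold change 0.67, edgeR adjusted p = 0.007), and the single gene that fell was Traf5, both named after their values were seen.

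Among the other brakes of the pathway the calls at an edgeR adjusted p under 0.01 against untreated samples were near the shares over all genes. Of 14 tested, 5 rose and 4 fell in RVO over untreated (27.4% and 24.6% of all genes), and 3 rose and 4 fell in control laser over untreated samples. In RVO over control laser edgeR called 0, where 2.7% of all genes rose and 0.634% fell. At an adjusted p under 0.05 in edgeR 7 of the 14 were higher and 2 lower, where 17.5% of all genes rose and 17.1% fell. Zc3h12a, an RNase that destroys inflammatory transcripts, rose by 1.86 on the log2 scale in RVO over untreated (edgeR adjusted p = 0.000386), and Irak3, an inactive kinase that blocks the MyD88 complex, by 1.76 (edgeR adjusted p = 0.000621). Tnip2, which binds the protein made from Tnfaip3, rose by 1.45 (edgeR adjusted p = 2.96e-05) and Nkiras2 by 1.04 (edgeR adjusted p = 0.00024). Tax1bp1, another partner of the Tnfaip3 product, was at -0.03 (edgeR adjusted p = 0.781) and N4bp1 at 0.09 (edgeR adjusted p = 0.452).

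Known target genes had the highest median of the 5 lists. Of 22 tested, 20 rose and 1 fell (Cd83) in RVO over untreated samples (median on the log2 scale 3.39), where 27.4% of all genes rose and 24.6% fell. In control laser over untreated 17 of 21 rose (median 1.98), against 27.2% of all genes. Genes near 0 counts in untreated samples, such as Cxcl1, Cxcl2, Ccl2, Ccl5 and Cxcl10, could pass the low-count filter there only through a laser group. They could only be called as rises, so these counts and medians are partly set by the filter. In RVO over control laser 4 of 24 rose (F3, Gadd45b, Tnfaip2 and Ier3, named after their values were seen), against 2.7% of all genes, and the median was 1.38. Cxcl2 and Cxcl1, chemokines that attract neutrophils, had 0 counts in the 3 untreated samples and 108 to 830 and 71 to 277 counts per RVO sample. Against a floor of 3 counts in the shallowest untreated sample Cxcl2 was at least 64.6-fold and Cxcl1 at least 26.2-fold higher in RVO. Ccl2, which attracts monocytes, had 0 to 1 counts per untreated and 388 to 746 per RVO sample, and Lcn2, an iron-binding acute phase protein, rose from 4.08 ± 0.698 CPM in untreated to 115 ± 39.6 CPM in control laser and 471 ± 168 CPM in RVO samples (SD, n = 3; log2 fold change 6.83 and edgeR adjusted p = 4.63e-06 for RVO over untreated). Sod2, also a textbook target, was at -0.07 (edgeR adjusted p = 0.441). The neutrophil and monocyte markers given above moved with this list too.

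The genes whose log2 CPM followed each member most closely over the 9 samples are given as a description, since 9 samples in 3 groups make many genes look alike. For Bcl3 they were RP23-98C9.5, Fgf2os, Socs3, Edn2 and Kcng4 (Pearson r of 0.999 to 0.996 over 9 samples, among 17174 genes). Socs3, a feedback inhibitor of cytokine signalling, had means of 2.94, 71.6 and 170 CPM, and Edn2, an endothelin made by injured photoreceptors, 2.22, 97.4 and 162 CPM in untreated, control laser and RVO samples. The closest gene was Sae1 for Nfkb2 (r = 0.997), Kdelr3 for Relb (r = 0.997), Mogs for Rela (r = 0.998), Rpn1 for Nfkbia (r = 0.997) and Spsb1 for Nfkbie (r = 0.999). It was Myo1h for Nfkb1 (r = 0.985), Cd300a for Rel (r = 0.982), Slc25a43 for Nfkbiz (r = 0.989) and Gm14091 for Tnfaip3 (r = 0.996).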

How the data were processed

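Retinal poly(A) RNA from 9 pools was sequenced as single reads with a strand-marking kit. Per the labels and the study's methods, the authors mapped reads to the mouse genome (GENCODE vM11) with STAR 2.5.2b and counted them per gene with featureCounts of Subread 1.5.1. The deposited values are raw counts per gene, one column per sample, for 48679 names, of which 92 are spike-ins with 0 counts that were left out. How reads with several matches and strand were counted is not given in the sources used here. Groups came from the sample titles. Counts were tested for each pair of groups in edgeR 4.0.16 (R 4.3.3) with TMM scaling, filterByExpr, the quasi-likelihood test and Benjamini-Hochberg adjustment over all genes tested. A gene was called at an adjusted p under 0.01. Standard errors are the absolute log2 fold change divided by the square root of F. CPM used TMM factors over the 9 samples, and a prior count of 2 for correlations. Gene lengths and positions came from GENCODE vM21 (GRCm38), in which 46372 of 48587 gene names matched a single gene, and promoters from RefSeq. The procedure was tested on simulated data. All 10 members were named in each comparison. Of each pathway list up to 4 called genes with the largest change in RVO over untreated, and up to 2 that were not called with the highest mean CPM, were named. For each marker list sums were given, and 1 rod marker is not reported here and was left out of the sum. Alternatives were RLE scaling, library size alone, other filters, DESeq2 1.42.0, all 9 samples in one fit, a replicate block, a threshold of 0.05 and leaving out samples. The members, lists and tests were chosen with earlier results of these data known. Intervals and floors cover counting error only.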

Additional observations from a re-analysis of the deposited data

How the results depend on the processing

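Against untreated samples the counts of members and of pathway genes called stayed within 1.5 times their values under each alternative, and the direction of each called member was kept. The exceptions in sign were values near 0: Rel in control laser over untreated, at 0.06, became -0.022 without control replicate 2 and -0.01 without untreated replicate 1 (-0.022 to 0.17 over the fits without a sample). RVO over control laser was less stable. Of the 10 members, 4 were called higher in edgeR, 1 with RLE size factors, 1 with a minimum of 1 CPM in 3 samples, 7 without a low-count filter, 7 with all 9 samples in one fit, 7 in DESeq2, 9 at an adjusted p under 0.05, 7 without both lens-rich samples (chosen after seeing the data) and 0 to 8 when a sample was left out. Members called lower went from 0 to 1 in DESeq2 and to 1 at an adjusted p under 0.05. Pathway genes called went from 9 to 5 with RLE size factors, 5 with the CPM minimum, 13 with library size alone, 36 without a filter, 36 in DESeq2, 37 with all 9 samples, 50 at 0.05, 40 without the lens-rich samples and 0 to 45 when a sample was left out, where 45 was without RVO replicate 2. The cause was not tested. All genes called higher and lower went from 456 and 107 to 324 and 76 with RLE size factors, 327 and 53 with the CPM minimum, 690 and 202 with library size alone, 1569 and 1740 without a filter, 1881 and 2162 in DESeq2, 1832 and 2021 with all 9 samples and 2129 and 2719 without the lens-rich samples, so the counts above moved with those of all genes. With the replicate number as a block 0 members and 0 pathway genes were called by edgeR for RVO over control laser (10 and 54 at an unadjusted p under 0.05), but it called 0 of all 16874 genes (7227 at an unadjusted p under 0.05), so this says nothing about the members. Same-numbered samples of these groups had correlations of -0.138 to 0.0653, and the labels do not say that a number marks the same mice. In RVO over untreated the block ended the call of Nfkb1 (edgeR adjusted p = 0.0161).

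Subunit shares moved with the length used. With the longest transcript Nfkb1 was at 34.8% in untreated, 21.1% in control laser and 15.3% in RVO samples, Rel at 5.84%, 3.39% and 2.98%, Rela at 53.0%, 59.8% and 55.2%, and Relb in untreated samples at 3.50%. With raw counts Nfkb1 was at 40.7%, 26.4% and 19.1%, Rel at 12.3%, 7.62% and 6.72%, Rela at 40.7%, 48.9% and 45.2%, and Relb in untreated samples at 3.23%. Depth limits Bcl3, Nfkb2 and Relb most, with 2 to 25 counts per untreated sample.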
